A study of Mus musculus with 9 samples.

Results

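Transcript levels of 10 genes that encode angiogenic and platelet-derived growth factors or their receptors were followed through osteoblast differentiation. The genes were the VEGF family ligands Vegfa, Vegfb, Vegfc and Pgf, the angiopoietin Angpt1, the KIT ligand Kitl, the PDGF ligands Pdgfa and Pdgfc, and the PDGF receptors Pdgfra and Pdgfrb. They were chosen by name, with earlier results of these data known. All 10 were found among the 40548 genes of the day 0 and day 7 tables and the 40526 genes of the day 4 tables. The cells were primary calvarial cells (cells of the skull vault) from C57BL/6 mice at postnatal day 2-3, grown to confluency. For differentiation they were then switched to mineralization medium, which holds β-glycerol phosphate and ascorbic acid per the study's methods. Each stage had 3 RNA-seq libraries: cells without differentiation (day 0), cells with 4 days of differentiation (day 4) and cells with 7 days of differentiation (day 7). The study's methods give the strain as C57BL/6J and name both wild type pups and pups with a ColI-GFP reporter, and the labels do not say which gave these libraries. All groups shared the strain and the tissue. Medium and stage cannot be told apart, since day 0 cells had not been switched to mineralization medium. The study's methods give a daily change of medium for the differentiation step. According to the labels, mineralized cells were released with collagenase I before trypsin whereas non-mineralized cells were released with trypsin alone, so that dissociation and stage cannot be told apart. The cultures were mixed primary cells. In such bulk RNA, a change in the share of a cell type and a change in RNA per cell cannot be told apart.

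VEGF ligands are secreted proteins that bind receptor tyrosine kinases on endothelial cells, and neuropilins act as their co-receptors. Angpt1 encodes the main activating ligand of the receptor Tek, and Kitl encodes the ligand of the receptor Kit. PDGF ligands are dimers that act on mesenchymal cells through the receptors encoded by Pdgfra and Pdgfrb. In bone, osteoblast-lineage cells are a known source of VEGF-A, and growth of vessels and formation of bone are coupled.

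The sequences upstream of 3 of the genes are shown because the genes went 3 ways between day 0 and day 7: Vegfa rose, Pdgfra fell, and the Vegfa paralog Vegfb did not pass the test. Each run holds the 250 bases before the annotated RefSeq start on GRCm38.p6, read 5′ to 3′ on the strand of the gene, and none of these bases is exonic in the annotation. The windows lie at chr17:46032378-46032627 (reverse strand) for Vegfa, chr19:6987652-6987901 (reverse strand) for Vegfb and chr5:75152001-75152250 (forward strand) for Pdgfra. Capitals mark matches to any of 4 motifs searched on both strands, namely the GC box GGGCGG, the core ACGTG of the hypoxia response element, the EGR motif GCGGGGGCG and the TATA box TATAAA.
Vegfa: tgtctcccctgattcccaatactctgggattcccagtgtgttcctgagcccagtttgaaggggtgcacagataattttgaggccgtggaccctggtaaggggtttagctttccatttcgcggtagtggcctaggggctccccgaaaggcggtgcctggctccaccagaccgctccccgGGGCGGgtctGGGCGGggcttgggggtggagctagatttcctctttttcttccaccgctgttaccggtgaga
Vegfb: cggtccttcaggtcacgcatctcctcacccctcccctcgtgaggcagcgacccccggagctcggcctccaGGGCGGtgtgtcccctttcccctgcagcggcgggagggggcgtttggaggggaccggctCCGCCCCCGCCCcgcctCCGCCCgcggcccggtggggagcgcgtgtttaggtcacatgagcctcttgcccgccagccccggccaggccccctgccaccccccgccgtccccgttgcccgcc
Pdgfra: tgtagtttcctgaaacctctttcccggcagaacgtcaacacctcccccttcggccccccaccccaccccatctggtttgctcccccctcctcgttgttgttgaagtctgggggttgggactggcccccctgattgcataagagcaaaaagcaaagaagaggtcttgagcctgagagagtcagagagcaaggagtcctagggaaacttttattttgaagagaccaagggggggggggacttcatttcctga
The Vegfa window held 2 GC boxes and none of the other motifs, and the Pdgfra window held no match to any of the 4. The Vegfb window held 4 GC boxes and 1 EGR match, which shared letters with a pair of neighbouring GC boxes. Windows were read for 8 of the 10 genes, 11 windows in all, since some genes have several annotated starts. No window was read for Angpt1 and Pdgfrb, and Vegfa, Pdgfa and Pgf count more than once. A GC box was found in 8 of these 11 windows, as against 32.7% of all 32841 windows of that length. The GC content of the 11 windows ran from 50.8% to 76.4%, beside a median of 52.4% over all windows. ACGTG was found in 1 of the 11, upstream of an alternative start of Vegfa, as against 16.6% of all windows. In that window 218 of the 250 bases are exonic in the annotation. The windows of Kitl, Pdgfa and Pgf also hold exonic bases, from 86 to 250 each. TATAAA was found in 1 of the 11, as against 12.4%, and the EGR motif in 1 of the 11, as against 2.57%.

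Levels are given as RPKM, in which read counts are divided by gene length and library size, which allows comparison between genes, and differences between day 7 and day 0 are given on the log2(CPM + 0.5) scale, where CPM is the read count scaled to library size alone. The libraries held 7741204 to 37306090 reads in genes, and the day 4 libraries were the deepest, with at least 32820610 each. Day 7 was tested against day 0 with limma in the 12712 genes with a mean of at least 1 CPM, and p-values were adjusted by Benjamini-Hochberg over all of them. Day 4 lies in tables apart from those of days 0 and 7 and was not tested. Only its levels and the overlap of its libraries with those of the other stages are given. Of the genes tested, 31.2% passed an adjusted p of 0.05, with 12.6% higher and 18.6% lower at day 7. The median log2 difference of all genes was -0.11, and scaling by median-of-ratios moved it by 0.103 and the share of higher genes among those called from 40.3% to 51.8%. Of 9 osteoblast markers, which define the labelled cell type, 8 rose, and Col1a1, which encodes the main collagen chain of bone, was highest at 2158 ± 369 RPKM at day 0 and 5475 ± 754 RPKM at day 7 (SD, n = 3).

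All 10 genes entered the test. Vegfa and Pdgfa rose, Pdgfra and Pdgfrb fell, and the other 6 genes did not pass the adjusted p of 0.05. These 2 of 10 in each direction, 4 in all, stand beside 12.6% and 18.6% of all genes and 31.2% in either direction, so the number of calls is near the background. The sizes of the changes of these 4 called genes were less common. Of the genes tested, 2.15% had a larger rise than Pdgfa and 2.30% had a larger rise than Vegfa. A larger fall than that of Pdgfrb was found in 2.19%, and than that of Pdgfra in 6.07%. For the other 6 genes, the share of tested genes with a larger absolute change ran from 21.6% for Pgf to 88.5% for Vegfc. Between day 0 and day 4, 4 genes were higher in every later library and 2 were lower in every one, where 21.1% and 22.2% of all genes were so placed, 43.3% in either direction. Between day 4 and day 7, 2 genes were higher and 4 lower without overlap, where 13.8% and 24.6% of all genes were, 38.5% in either direction. Between day 0 and day 7, 3 genes were higher and 3 lower without overlap, where 16.9% and 25.4% of all genes were, 42.3% in either direction.

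**Figure D1:**
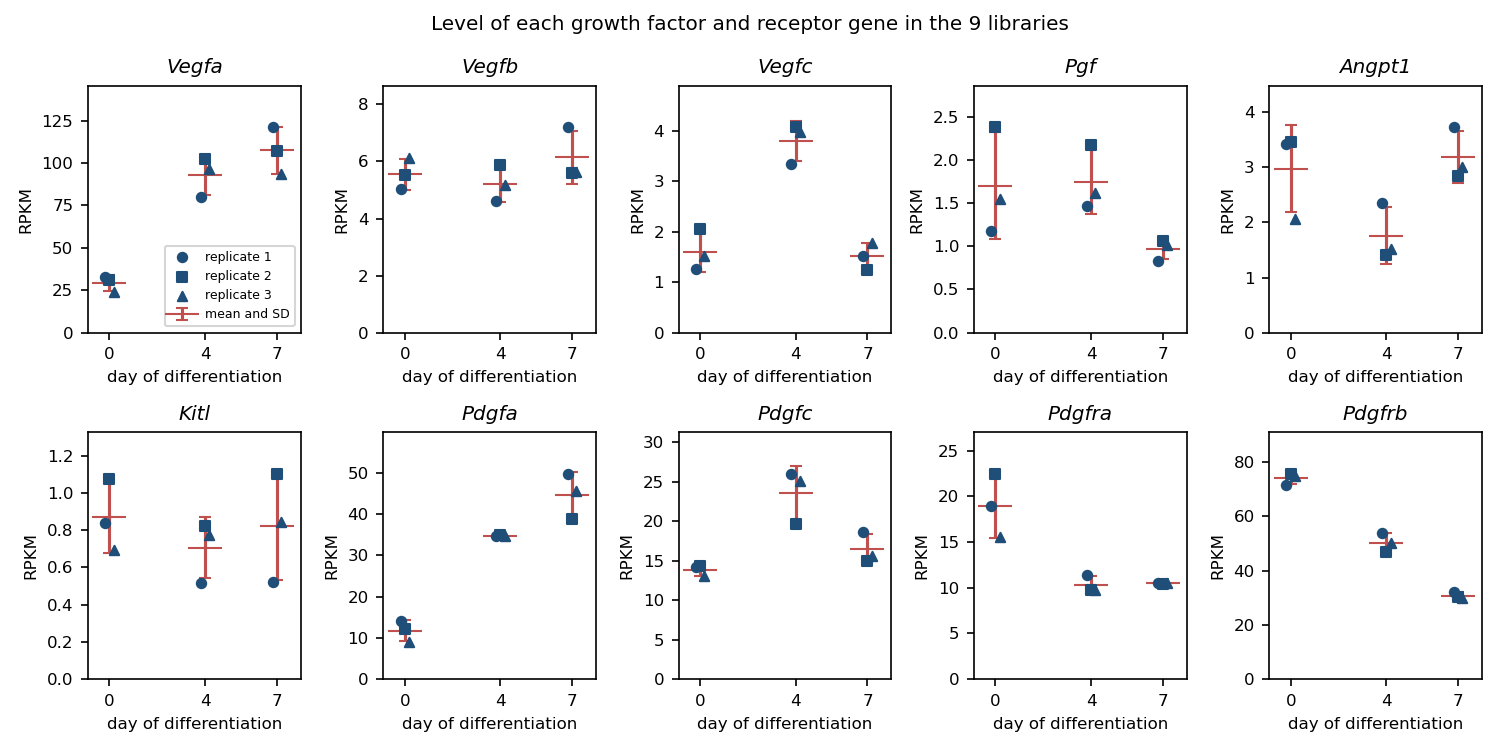
Levels of the 10 genes in the 9 libraries, in RPKM on an axis from 0, with 1 panel per gene, the day of differentiation on the horizontal axis, 1 symbol per replicate, and the mean with its SD over 3 libraries in red. The day 7 libraries of Vegfa lie between 93.8 and 121 RPKM, above all day 0 libraries, while those of Pdgfrb lie between 29.8 and 32.3 RPKM, below all others.

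Vegfa, the VEGF ligand that drives most vessel sprouting, was the most abundant ligand of the set at every stage. Its gene lies on chromosome 17 from 46016993 to 46032369 on the reverse strand (GRCm38). Its level was 33.0, 30.9 and 24.0 RPKM in the 3 day 0 libraries, 79.8, 102 and 96.5 RPKM at day 4, and 121, 107 and 93.8 RPKM at day 7. Every day 4 and day 7 library lay above every day 0 library, while day 4 and day 7 overlapped. The mean went from 29.3 ± 4.71 to 92.8 ± 11.6 and 107 ± 13.7 RPKM (SD, n = 3), so that most of the 3.66-fold difference between day 0 and day 7 was present at day 4, when the mean was 3.17-fold that of day 0. The log2 difference between day 7 and day 0 was 1.87 (SE 0.16, limma adjusted p = 7.12e-14), which is 1.99 above the median of all genes. Vegfa moved from between percentiles 86.4 and 87.6 of the tested genes at day 0 to between 96.5 and 97.4 at day 7, ranked by RPKM within each library. The values are sums over transcripts, and the splice forms of Vegfa that differ in matrix binding were not resolved.

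Vegfb, a ligand of Flt1 with little vessel-forming activity in most tissues, stayed within a narrow range. Its levels ran from 5.02 to 6.11 RPKM at day 0, from 4.61 to 5.87 at day 4 and from 5.60 to 7.20 at day 7, and all stages overlapped. The log2 difference between day 7 and day 0 was 0.13 (SE 0.20, limma adjusted p = 0.650), with a 95% interval of -0.26 to 0.53. The ratio of Vegfa to Vegfb within a library, which does not depend on how libraries are scaled, was 6.57, 5.60 and 3.93 at day 0 and 16.8, 19.1 and 16.7 at day 7. Every day 7 ratio lay above every day 0 ratio, a 3.34-fold difference (exact two-sided permutation p = 0.1, the smallest that 3 against 3 allows). This fold and those of the other ratios come from means of log2 ratios.

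Vegfc, the ligand of Flt4 and a driver of lymphatic growth, was highest at day 4. It was measured at 1.25, 2.04 and 1.51 RPKM at day 0, at 3.33, 4.07 and 3.98 RPKM at day 4, and at 1.52, 1.24 and 1.77 RPKM at day 7. No day 4 library overlapped with either of the other stages, and the day 4 mean of 3.80 ± 0.402 RPKM was 2.37-fold that of day 0 and 2.51-fold that of day 7 (SD, n = 3). Day 0 and day 7 overlapped, with a log2 difference of -0.06 (SE 0.24, limma adjusted p = 0.877, 95% interval -0.55 to 0.42). These levels rest on 22 to 46 reads per library at day 0, 206 to 286 at day 4 and 25 to 52 at day 7. The summed level of 8 immediate early genes, which respond to cell handling, was also highest at day 4, at 243 to 293 RPKM beside 92.9 to 120 at day 0 and 147 to 205 at day 7. For each of the 8, the lowest day 4 library exceeded the highest day 0 library. Their part in the day 4 values was not tested.

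Pgf encodes placental growth factor, a second ligand of Flt1. Its level was 1.17, 2.38 and 1.55 RPKM at day 0, 1.46, 2.17 and 1.61 RPKM at day 4, and 0.833, 1.07 and 1.01 RPKM at day 7. Every day 7 library lay below every library of the other stages. The log2 difference between day 7 and day 0 was -0.61 (SE 0.26), with a limma adjusted p of 0.0677 and a 95% interval of -1.13 to -0.09, at 18 to 45 reads per library. Without day 0 replicate 2 it was -0.38 (limma adjusted p = 0.416). The Vegfa to Pgf ratio went from 28.1, 13.0 and 15.5 at day 0 to 145, 101 and 92.7 at day 7, a 6.21-fold difference without overlap (exact two-sided permutation p = 0.1, the smallest possible). The summed level of Vegfa, Vegfb, Vegfc and Pgf went from 38.2 ± 4.32 RPKM at day 0 through 104 ± 12.9 RPKM to 116 ± 14.3 RPKM at day 7 (SD, n = 3). Vegfa made up 76.5% ± 4.68 of that sum at day 0, 89.6% ± 0.308 at day 4 and 92.5% ± 0.688 at day 7.

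Angpt1 stabilizes vessels through Tek. It was measured at 3.42, 3.46 and 2.06 RPKM at day 0, at 2.35, 1.40 and 1.52 RPKM at day 4, and at 3.73, 2.84 and 3.01 RPKM at day 7. All day 7 libraries lay above all day 4 libraries, by 1.81-fold in the mean, whereas day 0 overlapped with both. The log2 difference between day 7 and day 0 was 0.12 (SE 0.20, limma adjusted p = 0.686, 95% interval -0.27 to 0.52).

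Kitl, a survival factor for blood stem cells, mast cells and germ cells, was the least abundant gene of the set in the mean at every stage. Its levels ran from 0.694 to 1.07 RPKM at day 0, from 0.518 to 0.822 at day 4 and from 0.521 to 1.10 at day 7, and all stages overlapped. Its log2 difference between day 7 and day 0 was -0.11 (SE 0.23, limma adjusted p = 0.773, 95% interval -0.58 to 0.36). The soluble and membrane-bound forms of the KIT ligand come from the same gene and were not separated here.

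Pdgfa, a ligand of PDGF receptor alpha, rose by about as much as Vegfa. Its gene lies on chromosome 5 from 138976014 to 138997370 on the reverse strand (GRCm38). Its level was 14.0, 12.1 and 9.02 RPKM at day 0, 34.7, 34.9 and 34.8 RPKM at day 4, and 49.9, 38.8 and 45.6 RPKM at day 7. No libraries overlapped between any of the stages, and the 3 day 4 libraries were nearly equal. The mean was 11.7 ± 2.52, 34.8 ± 0.0842 and 44.8 ± 5.57 RPKM (SD, n = 3), a 2.97-fold difference to day 4 and a further 1.29-fold to day 7. The log2 difference between day 7 and day 0 was 1.93 (SE 0.16, limma adjusted p = 8.62e-14), which is 2.05 above the median of all genes. Exons of Pdgfa share 813 bases, 26.1% of its exonic length, with the antisense gene 6330403L08Rik, which had reads equal to 17.6% to 24.3% of those of Pdgfa at day 0 and 11.4% to 13.2% at day 7. Whether the counting used strand is not given in the sources used here, so reads in the shared bases cannot be assigned to a strand.

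Pdgfc, a ligand secreted in a latent form that proteases activate, peaked at day 4 in its levels. It was measured at 14.2, 14.3 and 13.0 RPKM at day 0, at 26.0, 19.6 and 25.1 RPKM at day 4, and at 18.7, 15.0 and 15.7 RPKM at day 7. The stages did not overlap at any step, and the day 4 mean was 1.71-fold that of day 0 and 1.44-fold that of day 7. The log2 difference between day 7 and day 0 was 0.24 (SE 0.16, limma adjusted p = 0.247, 95% interval -0.07 to 0.55). It passed the threshold with median-of-ratios scaling, at 0.35 with an adjusted p of 0.0114 in limma, and was 0.15 without day 7 replicate 1 (limma adjusted p = 0.610). The summed level of the immediate early genes, which was highest at day 4, stands beside the day 4 levels of Pdgfc too. Its part in them was not tested. The ratio of Pdgfa to Pdgfc within a library was 0.988, 0.848 and 0.693 at day 0, 1.33, 1.77 and 1.39 at day 4, and 2.67, 2.59 and 2.91 at day 7. Pdgfc was thus the more abundant of the pair in every day 0 library and Pdgfa in every later library, with a 3.26-fold difference in the ratio between day 0 and day 7 (exact two-sided permutation p = 0.1, the smallest possible).

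The macrophage markers moved in the same direction as Vegfa and Pdgfa. All 7 rose, where 12.6% of all genes did. With RPKM in place of CPM, without day 0 replicate 1 or without day 7 replicate 1, 6 of the 7 rose. At a mean of at least 5 CPM 4 were tested, and all 4 rose. The summed level of the 7 markers was 8.34 to 13.0 RPKM at day 0, 17.1 to 21.7 at day 4 and 18.3 to 23.9 at day 7. Their highest member was Cd68, at 3.82 ± 0.679 and 6.95 ± 0.693 RPKM at days 0 and 7 (SD, n = 3). The part of these cells in the rises of Vegfa and Pdgfa was not tested. The platelet markers are relevant because platelets store PDGF. They summed to 4.46 to 5.45 RPKM at day 0 and 5.77 to 7.28 at day 7. Of the 6 markers 3 entered the test, 1 rose and 1 fell, where 12.6% and 18.6% of all genes did. Gp9 and Gp6 were at 0 in all libraries. The highest platelet marker at day 7 was Pf4, at 1.62 ± 0.208 RPKM at day 0 and 4.12 ± 0.653 RPKM at day 7 (SD, n = 3). At day 0 Gp1bb was higher in the mean, at 2.05 ± 0.377 RPKM (SD, n = 3).

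Pdgfra and Pdgfrb encode the receptor tyrosine kinases for PDGF, which mark many mesenchymal progenitors, and both fell. Pdgfra, on chromosome 5 from 75152292 to 75198215 on the forward strand, was measured at 19.0, 22.5 and 15.5 RPKM at day 0, at 11.4, 9.71 and 9.76 RPKM at day 4, and at 10.5, 10.4 and 10.5 RPKM at day 7. All later libraries lay below all day 0 libraries, and day 4 and day 7 overlapped. The mean went from 19.0 ± 3.49 to 10.5 ± 0.0593 RPKM (SD, n = 3), 1.81-fold lower at day 7. The log2 difference was -0.84 (SE 0.16, limma adjusted p = 3.35e-05), which is -0.72 relative to the median of all genes.

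Pdgfrb, on chromosome 18 from 61045150 to 61085061 on the forward strand, was the most abundant gene of the set at day 0. Its level was 71.7, 75.8 and 75.0 RPKM at day 0, 53.7, 46.9 and 50.3 RPKM at day 4, and 32.3, 30.1 and 29.8 RPKM at day 7. In contrast to Pdgfra, its libraries did not overlap at either step, and the mean was 1.47-fold lower at day 4 and a further 1.64-fold lower at day 7. Over both steps it went from 74.2 ± 2.16 to 30.7 ± 1.34 RPKM (SD, n = 3), 2.41-fold lower. The log2 difference was -1.27 (SE 0.15, limma adjusted p = 1.89e-09), which is -1.16 relative to the median of all genes.

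The receptors were also compared by the ratio of Pdgfra to Pdgfrb within a library. It was 0.264, 0.297 and 0.207 at day 0, 0.212, 0.207 and 0.194 at day 4, and 0.325, 0.346 and 0.353 at day 7. The day 7 ratios lay above all others, while day 0 and day 4 overlapped. From the means of the log2 ratios, day 7 was 1.35-fold day 0, a log2 difference of 0.43 (SE 0.16, exact two-sided permutation p = 0.1, the smallest possible). Without day 0 replicate 3 it was 0.29.

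**Figure D2:**
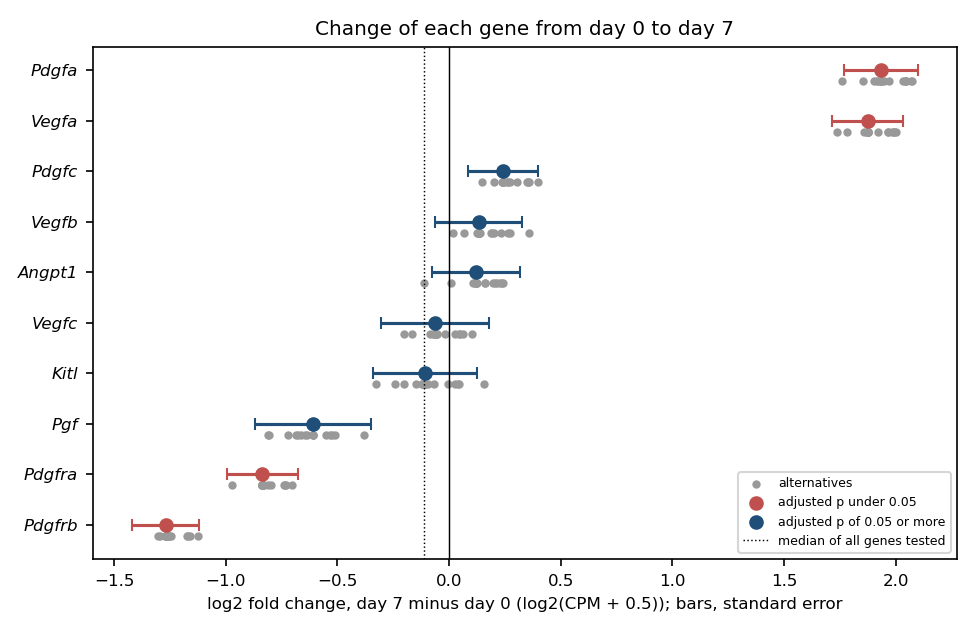
Log2 difference between day 7 and day 0 of the 10 genes on the log2(CPM + 0.5) scale, with 1 large point per gene, bars for the standard error, red for an adjusted p under 0.05, small grey points for the alternatives and a dotted line at the median of all tested genes. Vegfa at 1.87 and Pdgfa at 1.93 lie to the right, Pdgfra at -0.84 and Pdgfrb at -1.27 lie to the left.

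**Figure D3:**
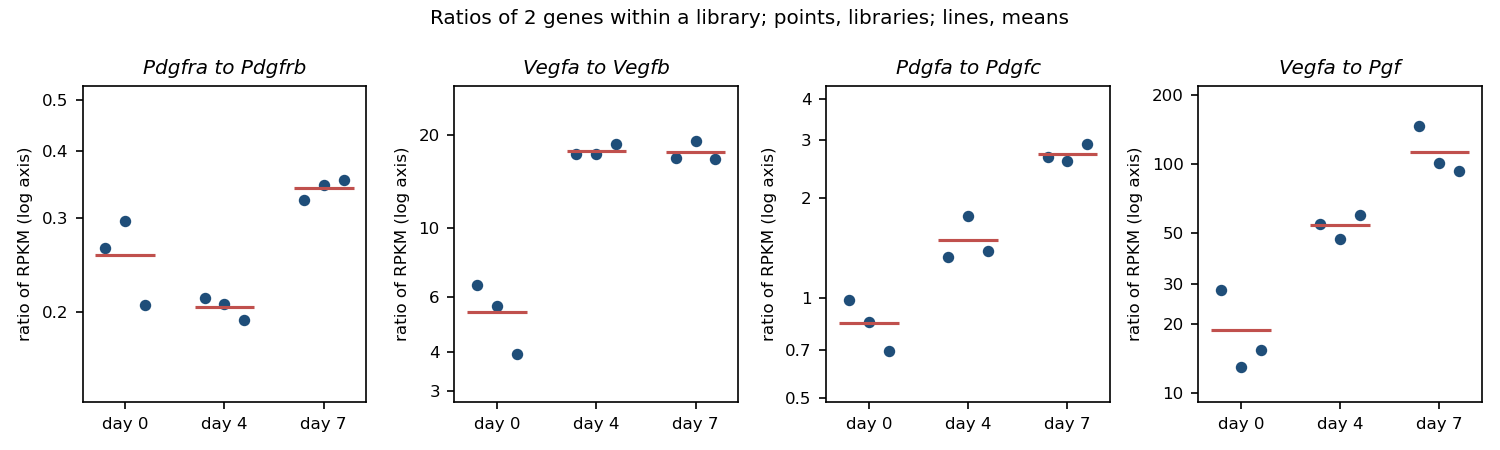
Ratios of RPKM values of gene pairs within each library, by stage on a log axis, with 1 point per library and a line at the mean. In each of the 4 ratios every day 7 library lies above every day 0 library. Taken from means of log2 ratios, the differences run from 1.35-fold for Pdgfra to Pdgfrb up to 6.21-fold for Vegfa to Pgf.

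The order of the genes by RPKM changed with these shifts. At day 0 Pdgfrb was highest, followed by Vegfa and Pdgfra, each apart from the next in all 3 libraries. Pdgfc and Pdgfa came next and overlapped, then Vegfb, then Angpt1, Pgf and Vegfc, whose neighbours overlapped, and Kitl last. At day 4 Vegfa was highest, followed by Pdgfrb, Pdgfa, Pdgfc, Pdgfra, Vegfb and Vegfc, with no overlap between neighbours in that series. At day 7 Vegfa was followed by Pdgfa, and Pdgfrb had moved to the third place. Pgf and Kitl were the lowest pair at day 7 and overlapped.

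Receptors of the VEGF, angiopoietin and KIT ligands were sparse in the cultures except for the neuropilins. Of 8 receptor genes of these ligands, 5 entered the test, 2 rose and 2 fell, where 12.6% and 18.6% of all genes did. Nrp1, a co-receptor for VEGF-A and class 3 semaphorins, was measured at 15.6, 15.1 and 11.8 RPKM at day 0, at 9.24, 7.63 and 8.26 RPKM at day 4, and at 7.41, 6.07 and 6.58 RPKM at day 7. Its log2 difference was -1.07 (SE 0.16, limma adjusted p = 5.15e-07). Nrp2, which also binds VEGF-C, was measured at 27.0, 30.6 and 24.6 RPKM at day 0, at 45.2, 34.9 and 46.9 RPKM at day 4, and at 54.9, 46.9 and 50.1 RPKM at day 7. Its log2 difference was 0.89 (SE 0.16, limma adjusted p = 1.12e-05), so the neuropilins moved in opposite directions without overlap between day 0 and day 7.

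The signalling receptors were near the limit of detection. Flt1, the receptor for VEGF-A, VEGF-B and placental growth factor, fell by 0.71 on the log2 scale (SE 0.25, limma adjusted p = 0.0278), from 0.253 ± 0.0301 to 0.141 ± 0.0481 RPKM (SD, n = 3) and at 14 to 123 reads per library over the 9 libraries. This call was lost in 8 of the 16 alternatives that gave Flt1 a value, namely without the filter, with median-of-ratios scaling, the RPKM table, edgeR or DESeq2, and without day 0 replicate 1, day 0 replicate 2 or day 7 replicate 1, and the log2 difference of Flt1 ran from -0.87 to -0.23 over the 16. Flt4 was at 0.184 ± 0.0780 and 0.227 ± 0.0702 RPKM at days 0 and 7 (SD, n = 3), with a log2 difference of 0.26 (limma adjusted p = 0.517). Kdr, the main signalling receptor for VEGF-A on endothelium, had 0 to 11 reads per library, Tek had 2 to 17, and Tie1 had 0 in all 9. Kit had 0, 1 and 1 reads at day 0, 79, 80 and 67 at day 4, and 48, 41 and 21 at day 7. Scaled to library size, day 7 was at least 10.2-fold higher than a floor of 3 reads per day 0 library (limma adjusted p = 4.70e-09). The day 4 libraries were deeper. In RPKM, Kit was at 0.366 ± 0.0470 at day 4 and 0.497 ± 0.233 at day 7 (SD, n = 3), and these 2 stages overlapped. Of the 7 mast cell markers, Kit was the highest and 3 were at 0 in all libraries.

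Endothelial cells, the usual target of the VEGF ligands, left little trace. The 10 endothelial markers summed to 1.91 to 2.90 RPKM at day 0 and 2.87 to 3.62 at day 7, and Tie1 and Emcn were at 0 throughout. Pecam1, Cdh5 and Vwf had at most 13 reads in any library. The highest marker was Egfl7 at 1.88 ± 0.0456 RPKM at day 7 (SD, n = 3). Of the 2 that entered the test 1 rose, where 12.6% of all genes did. The riser was Esam, from 1 to 3 reads per library at day 0 to 33 to 44 at day 7. Pericyte and smooth muscle markers are relevant because pericytes carry Pdgfrb. Of 10 such markers 9 were tested, 3 rose and 1 fell, where 12.6% and 18.6% of all genes did. The highest of these markers, Acta2, was at 1333 ± 90.1 RPKM at day 0 and 1154 ± 57.0 at day 7 (SD, n = 3). Of the 6 fibroblast progenitor markers 4 were tested, 1 rose and 1 fell, beside the same shares of all genes. The highest of the 6, Thy1, was at 70.7 ± 8.83 RPKM at day 0 and 75.9 ± 2.43 RPKM at day 7 (SD, n = 3).

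A list of further ligands and decoy genes mostly went up. Besides genes of the same families it holds the angiopoietin-like genes Angptl1, Angptl2 and Angptl4 and the ligands Hgf and Cxcl12, which lie outside them. Of 9 tested out of 11, 6 rose and 1 fell, where 12.6% and 18.6% of all genes did, and the median log2 difference was 0.92. Pdgfb, Pdgfd, Pdgfrl, Angpt2, Angptl2 and Angptl4 rose, and Hgf and Cxcl12 did not pass the test. The largest rise was that of Pdgfrl, which encodes a PDGF receptor-like protein without a kinase domain. It went from 3.62 ± 0.695 to 10.9 ± 1.54 RPKM (SD, n = 3), a log2 difference of 1.55 (SE 0.18, limma adjusted p = 1.08e-09). The only fall was that of Vegfd, a ligand of Flt4 like Vegfc, from 7.41 ± 2.10 to 2.65 ± 0.165 RPKM (SD, n = 3). Its log2 difference was -1.38 (SE 0.20, limma adjusted p = 1.84e-07).

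Genes of secreted angiogenesis inhibitors went the other way. Of 12 tested, 10 fell and 1 rose, where 18.6% and 12.6% of all genes did. The median log2 difference was -1.13 beside -0.11 for all genes. The largest fall was that of Cnmd, which encodes the cartilage and tendon inhibitor chondromodulin, at -2.66 (SE 0.35, limma adjusted p = 1.70e-08), and its day 0 libraries were far apart at 16.5, 5.40 and 5.32 RPKM. The call for Cnmd was lost with robust variances. The rise was that of Vash1, at 0.58 (SE 0.23, limma adjusted p = 0.0495), and its call was lost in 9 of 17 alternatives, among them leaving out any library but day 0 replicate 2, with log2 differences of Vash1 from 0.33 to 0.86. Over the 17 alternatives described in the closing section, 9 to 11 of the list were lower at day 7 and 0 to 1 higher.

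Genes linked to the response to low oxygen, which also acts on Vegfa in many cells, mostly rose. The part of low oxygen in the rise of Vegfa was not tested. Of 14 tested, 11 rose and none fell, where 12.6% and 18.6% of all genes did, and the median log2 difference was 1.70. Hif1a and Epas1, which encode the oxygen-regulated factors themselves, and Adm did not pass the test. The largest rise was that of Egln3, an oxygen-dependent prolyl hydroxylase, from 1.94 ± 0.635 to 57.3 ± 17.1 RPKM (SD, n = 3), at 4.75 (SE 0.20, limma adjusted p = 4.28e-25). Under the alternatives, 9 to 11 of the 14 were higher and 0 to 1 lower.

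**Figure D4:**
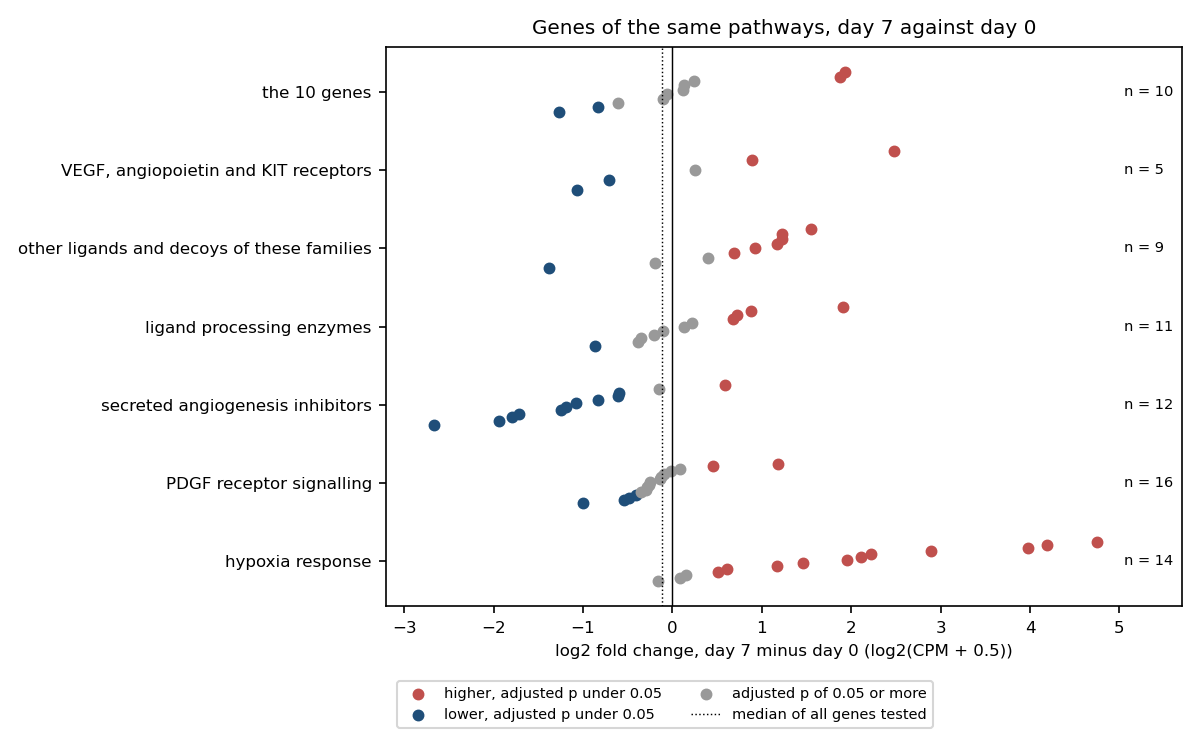
Log2 difference between day 7 and day 0 on the log2(CPM + 0.5) scale for the 10 genes and 6 lists of pathway genes, with 1 point per tested gene, colours for the limma call at an adjusted p of 0.05 and a dotted line at the median of all tested genes. The hypoxia response genes lie mostly to the right, with a median of 1.70, and the secreted inhibitors mostly to the left, with a median of -1.13.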

How the data were processed

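RNA was depleted of ribosomal RNA with Ribo-Zero Gold per the labels. The authors aligned reads to the Ensembl release 76 assembly (GRCm38) with STAR 2.0.4b and counted uniquely aligned reads per gene with featureCounts. They deposited CPM and RPKM values, in separate tables for days 0 and 7 and for day 4. From the deposited CPM values, limma 3.58.1 (R 4.3.3) was fitted with a trended variance to log2(CPM + 0.5) of the 6 day 0 and day 7 libraries, for the 12712 genes with a mean of at least 1 CPM, and p-values were adjusted by Benjamini-Hochberg. A further 11075 genes with reads were left out by this filter. RPKM gave the levels. Whole reads could be recovered from 100% of the CPM values (tolerance 0.01), and edgeR 4.0.16 and DESeq2 1.42.0 were run on them as alternatives, with edgeR and DESeq2 calling 5468 and 4910 genes and limma 3971. The depth of 7741204 to 14013219 reads at day 0 limits the precision of genes with few reads. The labels do not say whether replicates came from separate cultures or animals, while the study describes them as biological replicates. If they share a culture, the p-values measure only the spread between libraries. No pair of replicates was a repeat deposit, since chi-square values divided by their degrees of freedom were 12.7 to 222 between them. The script was tested on simulated data. Named genes were the 10 genes, all of their receptors, the largest rise and fall of each pathway list and the highest gene of each marker list. Esam, Plat, Gp1bb, the near-absent markers and the immediate early list were added after their values were seen. The genes and lists were chosen with earlier results of these data known. Gene positions are from GENCODE M21, and promoter windows from RefSeq.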

Additional observations from a re-analysis of the deposited data

How the results depend on the processing

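Across 17 alternatives (other pseudocounts, filters, scalings, the RPKM table, count tools, a replicate block and leaving out each library), Vegfa, Pdgfa, Pdgfra and Pdgfrb kept their direction and call. The 10 genes gave 2 to 3 higher and 2 to 3 lower. Over all genes, 3971 calls became 6120 with TMM and voomWithQualityWeights, and 2882 to 6330 without 1 library, the most without day 0 replicate 3, where 25.8% of the calls were higher. Pgf passed at -0.55 with RPKM (limma adjusted p = 0.0279), -0.81 with voomWithQualityWeights (0.0479) and -0.81 without day 0 replicate 1 (0.0265), and was at -0.38 without day 0 replicate 2 (0.416), with adjusted p = 0.183 in DESeq2 and without the filter in limma. Pdgfc passed at 0.35 with median-of-ratios scaling, 0.40 with voomWithQualityWeights, 0.36 with edgeR and 0.36 with DESeq2, and was at 0.15 without day 7 replicate 1. The log2 ratio of Pdgfra to Pdgfrb ran from 0.29 to 0.55 without 1 library. The uncalled Vegfc difference turned positive at 0.029 with median-of-ratios scaling, 0.061 with edgeR and 0.046 with DESeq2, and ran from -0.20 to 0.10 without 1 library. Kitl was at 0.026 with edgeR and 0.044 with DESeq2, and from -0.33 to 0.16 without 1 library, and Angpt1 from -0.11 to 0.24. The cause was not tested. Same-numbered libraries of days 0 and 7 deviated from their stage means with correlations of -0.44 to -0.02, and no library correlated best with its own number. With 3 libraries per stage such deviations constrain each other, so these values cannot decide whether the numbers pair the libraries. With the replicate block 3413 genes were called, with 2 of the 10 higher and 2 lower. Vegfc, Pgf and Kitl could not be fitted at a mean of at least 5 CPM. Kdr and Tek had too few reads to be tested.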

Other observations

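Enzymes that process these ligands and the signalling genes downstream of the PDGF receptors were not described above. Of 12 processing genes 11 were tested, 4 rose and 1 fell, where 12.6% and 18.6% of all genes did. The median log2 difference was 0.13. The largest rise was that of Pcsk6, a proprotein convertase, from 16.2 ± 3.21 to 60.4 ± 5.10 RPKM (SD, n = 3), at 1.91 (SE 0.16, limma adjusted p = 4.06e-14). The fall was that of Mmp9, a matrix metalloproteinase that can release matrix-bound VEGF, at -0.86 (SE 0.28, limma adjusted p = 0.0136). This call was lost in 7 of the 16 alternatives that gave Mmp9 a value, namely without the filter, with median-of-ratios scaling, edgeR or DESeq2, and without day 0 replicate 2, day 0 replicate 3 or day 7 replicate 1, and 4 to 5 genes of the list were higher and 0 to 1 lower over all alternatives. Plat, which encodes the tissue plasminogen activator and was named after its values were seen, had means of 22.5, 62.1 and 17.3 RPKM at days 0, 4 and 7.

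Of 16 genes of PDGF receptor signalling 2 rose and 4 fell, where 12.6% and 18.6% of all genes did. The median log2 difference was -0.26 beside -0.11 for all genes. The largest rise was that of Ptprj, a receptor phosphatase, at 1.18 (SE 0.18, limma adjusted p = 4.10e-07), and the largest fall that of Pik3r1, the regulatory subunit of PI 3-kinase, at -1.003 (SE 0.16, limma adjusted p = 1.14e-06). Under the alternatives, 1 to 3 genes of this list were higher and 1 to 9 lower.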
